A study of Mus musculus with 11 samples.

Results

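A set of 8 genes that mark the choroid plexus epithelium was followed in RNA from the forebrain of E12.5 mouse embryos with and without Kif20a, a kinesin of dividing cells: Ttr, Clic6, Folr1, Otx2, Htr2c, Calml4, Kl and Aqp1. They were found by symbol, 1 row each in both tables of 20475 genes, so all 8 members were present in each. The 11 libraries fell into a germline comparison of 3 wild-type and 3 knockout libraries and an inducible comparison of 2 wild-type and 3 knockout libraries. The labels name the tissue forebrain, with neural cell as the cell type, whereas the study's text names cortex.

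The germline knockouts carried a knockout-first allele, in which a cassette holding LacZ and neomycin resistance breaks up Kif20a in every cell, and they were set against wild-type embryos. That line came from a single embryonic stem cell clone, crossed to C57BL/6J. The inducible knockouts were Kif20a fl/fl embryos with Nestin-CreERT2, a tamoxifen-activated Cre driven by a promoter of neural progenitor cells, from mothers given tamoxifen on consecutive days before collection. Their controls are labelled wild type, and their exact genotype is not given in the labels. In its other inducible experiments the study used Kif20a fl/fl littermates, from the same tamoxifen-treated mothers, as controls. If that held here too, the Cre transgene also differed between the groups. In this design Kif20a is deleted only in cells where the Cre was active and in cells descended from them. The share of choroid plexus cells with the deletion was not measured. The study describes the wild-type and knockout embryos as littermates, but neither labels nor methods say which libraries shared a litter or how many litters there were, so the p-values below measure only the spread between these libraries.

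The choroid plexus is a frond of epithelium over a vascular stroma that hangs into the brain ventricles and secretes cerebrospinal fluid. In the forebrain its epithelium arises from the dorsal midline next to the cortical hem, a source of Wnt and Bmp signals, and it becomes multiciliated. Ttr (transthyretin) is the thyroid hormone and retinol carrier that this epithelium makes in quantity, and Otx2 is the homeodomain factor that the tissue needs to form. Htr2c is a serotonin receptor, Folr1 the folate receptor that moves folate into the fluid, Aqp1 a water channel of the apical membrane, Clic6 a chloride intracellular channel protein, Kl (klotho) a co-receptor for a fibroblast growth factor hormone and Calml4 a calmodulin-like protein.

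The members lie on 8 different chromosomes and in the build of the files, mm9, they were placed with the GENCODE M1 annotation. Otx2 is at chr14:49277354-49287319 (- strand), Clic6 at chr16:92485981-92541488 (+), Htr2c at chrX:143397056-143631820 (+), Folr1 at chr7:109006845-109019302 (-), Aqp1 at chr6:55286426-55298549 (+), Calml4 at chr9:62705911-62723725 (+) and Kl at chr5:151755182-151796384 (+).

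RefSeq promoters of the GRCm38.p6 build, 250 bases before to 50 after a start site, were at hand for 5 of the 8 members (Aqp1, Calml4, Htr2c, Kl and Otx2), in 8 windows. The windows of 3 members are shown because Htr2c and Calml4 moved most closely with Ttr across the 11 libraries, and because Otx2 did not do so in the germline table. Capitals mark the letters TAATCC or their reverse complement GGATTA, the core that Otx-type homeodomain factors bind, searched on both strands.
Htr2c, chrX:146962263-146962562, + strand: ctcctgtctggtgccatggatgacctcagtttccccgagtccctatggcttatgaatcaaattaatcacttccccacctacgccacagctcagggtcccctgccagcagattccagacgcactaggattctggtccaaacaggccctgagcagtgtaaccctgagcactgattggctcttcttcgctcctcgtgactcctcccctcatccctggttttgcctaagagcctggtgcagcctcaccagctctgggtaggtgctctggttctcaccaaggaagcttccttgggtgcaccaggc
Calml4, chr9:62857854-62858153, + strand: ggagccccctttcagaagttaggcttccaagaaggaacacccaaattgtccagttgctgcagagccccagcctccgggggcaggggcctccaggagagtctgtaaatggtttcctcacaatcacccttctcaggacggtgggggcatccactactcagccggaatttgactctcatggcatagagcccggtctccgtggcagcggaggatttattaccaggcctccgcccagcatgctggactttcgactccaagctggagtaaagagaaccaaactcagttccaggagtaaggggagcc
Otx2, chr14:48665060-48665359, - strand: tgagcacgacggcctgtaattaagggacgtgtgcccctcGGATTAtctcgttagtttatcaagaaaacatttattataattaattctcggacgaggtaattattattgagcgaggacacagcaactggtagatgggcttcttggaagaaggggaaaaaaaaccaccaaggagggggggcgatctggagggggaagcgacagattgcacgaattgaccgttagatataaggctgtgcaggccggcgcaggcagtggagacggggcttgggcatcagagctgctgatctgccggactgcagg
The letters occurred in 1 of the 8 windows, the Otx2 window shown (1 of 4 for that gene), where GGATTA begins at position -211 from the start site. They occurred in 2320 of the 32851 mouse promoters of the same length, or 7.06%. The match is a description of letters, and the absence of a match in the other 7 windows says only that these letters are not in them.

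Levels between genes were compared per kilobase of exon. In the germline wild-type libraries Ttr had the highest level, 2950 ± 1750 normalized counts per kilobase (SD, n = 3), against 236 ± 78.4 for Otx2, 145 ± 76.1 for Clic6 and 29.2 ± 7.35 for Folr1. Calml4 (28.1 ± 14.4), Aqp1 (24.4 ± 16.5) and Htr2c (16.7 ± 9.19) lay within the spread of Folr1 or of each other, and Kl was the lowest at 1.52 ± 0.431. In the inducible wild-type libraries (n = 2) the first and last places were the same, with Ttr at 1880 ± 166, Otx2 at 493 ± 31.9, Clic6 at 295 ± 42.9 and Kl at 0.896 ± 0.371. The values of the 2 tables were normalized apart, so levels are not compared across them. All other values are normalized counts without division by length.

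Kif20a itself served as the check of the labels. Its mean fell from 2477 ± 194 to 429 ± 67.1 normalized counts in the germline comparison (SD, n = 3 and 3; log2 fold change -2.54, limma adjusted p 0.00845) and from 4802 ± 59.4 to 2964 ± 143 in the inducible comparison (n = 2 and 3; -0.70, limma adjusted p 0.0107). Library totals ran from 13048716 to 15551274 normalized counts in the germline and from 24118520 to 24497307 in the inducible table. Germline knockout replicate 2 stood apart from the others on the first principal component (absolute score 91.2 against 3.72 to 38.4), so the germline results are also given without it. That fit called more genes in general, 4.58% of all genes tested lower and 4.19% higher. Emx1, which marks the dorsal cortex, was present in every library, at 304.5 or more normalized counts. Kdm5d, on the Y chromosome, was at 0 in both inducible wild-type libraries and at 1259 to 1386 in all 3 inducible knockouts, so in that comparison the embryos' sex and the knockout cannot be told apart. In the germline table it was at 397.9 to 1442 in wild-type replicates 1 and 3 and knockout replicate 3, and at 1.63 or less in the others.

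In the germline comparison Ttr was the member with the largest difference and the only 1 of the 7 tested that was called lower, where a call needs a 1.5-fold change or more together with an unadjusted p no higher than 0.05. Of all 13938 genes tested, 0.667% were called lower and 2.74% in either direction. Ttr lies at chr18:20823751-20832825 (+ strand) and was the only member whose exons overlapped those of another gene, by 11 bases with the antisense gene Gm16090. Kif20a lies on the same chromosome, at chr18:34784278-34792919 (+). Whether sequence linked to the targeted allele affects Ttr was not tested. The normalized counts of Ttr were 4710, 4950 and 1146 in the wild-type libraries and 569.2, 713.2 and 1663 in the knockouts. The groups overlapped, as wild-type replicate 3 lay below knockout replicate 3. The mean went from 3602 ± 2130 to 982 ± 594 (SD, n = 3 and 3), 27.3% of wild type, with a log2 fold change of -1.77 ± 0.637 (SE; limma p 0.0273, adjusted p 0.779). No member passed an adjusted p of 0.05, which 0.00717% of all genes did. The call was lost without wild-type replicate 1 (-1.44), wild-type replicate 2 (-1.40) or knockout replicate 1 (-1.46), and kept without knockout replicate 2 (-1.62). In bulk tissue, fewer cells of a type and less RNA per cell cannot be told apart.

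**Figure D1:**
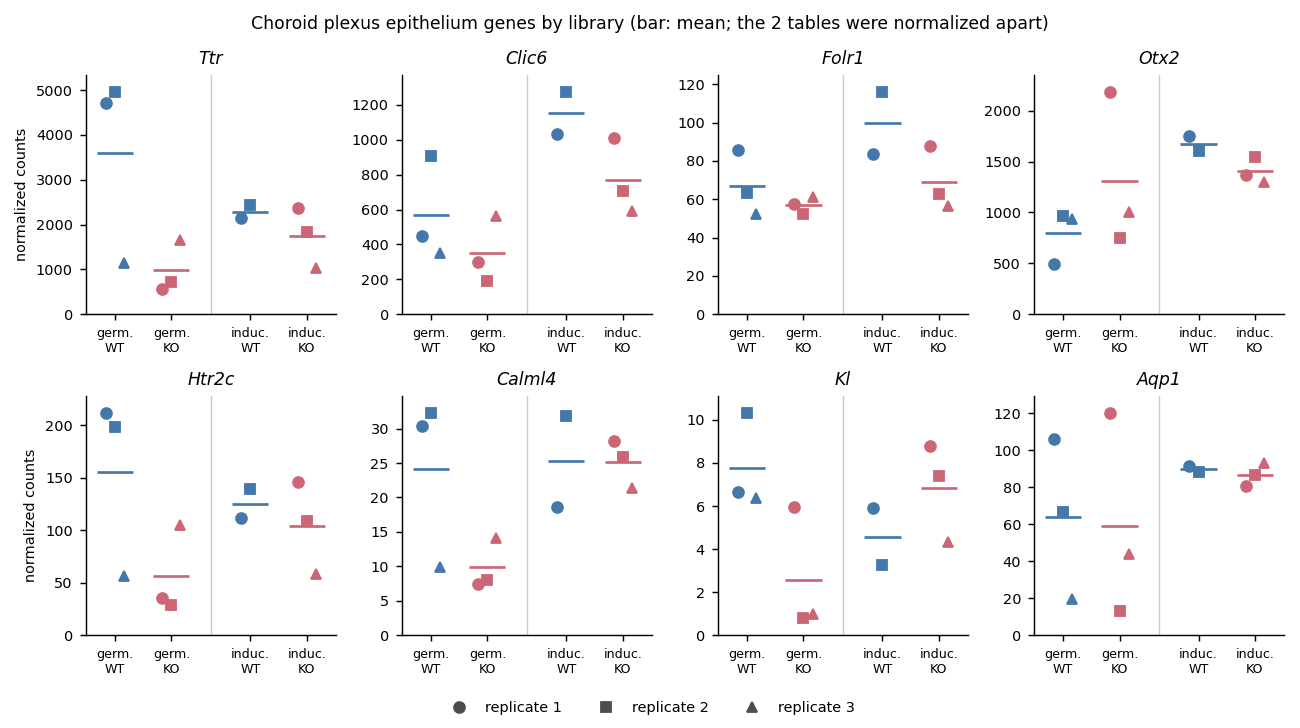
Normalized counts of the 8 genes in every library. Each panel is a gene, with normalized counts from 0 on the y axis, the 4 groups on the x axis, 1 point per library (its shape the replicate number) and a bar at the group mean. In the germline table Ttr, Htr2c and Calml4 are high in wild-type replicates 1 and 2, low in wild-type replicate 3 and highest among the knockouts in replicate 3, and in the inducible table knockout replicate 3 is the lowest for Ttr (1025), Clic6 (591.9), Folr1 (56.49) and Htr2c (58.02).

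Htr2c and Calml4 took a library order close to that of Ttr in the germline table without passing the thresholds. Htr2c was at 211.2, 198.5 and 56.81 normalized counts in wild type and at 35.25, 28.7 and 104.5 in the knockout libraries. Its means were 156 ± 85.7 and 56.1 ± 42.0, a log2 difference of -1.48 ± 0.661 (SE; limma p 0.0602, adjusted p 0.779). Calml4 was at 30.35, 32.2 and 9.91 in wild type and at 7.5, 8.0 and 14.07 in the knockout libraries, with a log2 difference of -1.10 ± 0.577 (limma p 0.0981). For both genes, wild-type replicate 3 again lay below knockout replicate 3, and the groups overlapped. Clic6 was at 446.8, 906 and 348.1 in wild type and at 299.6, 190.8 and 562.6 in the knockout libraries (log2 difference -0.71 ± 0.477, limma p 0.181). Its knockout replicate 3 lay above 2 of the 3 wild-type libraries.

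Folr1 and Aqp1 had the smallest log2 differences between the germline groups. Folr1 was at 85.54, 63.34 and 52.39 normalized counts in wild type and at 57.54, 52.44 and 61.29 in the knockout libraries, a log2 difference of -0.20 ± 0.278 (SE; limma p 0.488). Aqp1 spread over a 9.01-fold range, with 106.2, 66.42 and 19.83 in wild type and 120, 13.32 and 44.21 in the knockouts. Its log2 difference was -0.31 ± 0.889 (limma p 0.734), and it became 0.48 without knockout replicate 2. Aqp1 is also made by erythroid and endothelial cells, and knockout replicate 2, where it was lowest, had the lowest summed levels of 15 erythroid genes (43210 against 107300 to 176100 in the other germline libraries) and of 18 endothelial genes (1123 against 2169 to 4674). Wild-type replicate 3, the next lowest in Aqp1, did not share this, with an erythroid sum of 133800 and an endothelial sum of 4088. None of the 18 endothelial genes passed both thresholds, and of the 15 erythroid genes Tfrc was called higher, against 2.07% of all genes. Without knockout replicate 2, 3 endothelial and 5 erythroid genes were called higher, against 4.19% of all genes. The part of these cells in the Aqp1 values was not tested.

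Kl was the only member under the filter of a mean of 10 normalized counts, in both tables, and so was not tested. Its germline values were 6.63, 10.3 and 6.36 in wild type and 5.94, 0.80 and 1.01 in the knockouts. Every knockout library lay below every wild-type library, but 2 of them lay under 3 counts, where levels have no order. Fitted with no filter on low values, its log2 difference was -1.55 ± 0.602 (SE; limma p 0.034, adjusted p 0.811). In the inducible table Kl was at 5.92 and 3.24 in wild type and at 8.77, 7.40 and 4.32 in the knockout libraries, and the groups overlapped.

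Otx2 was the only tested member with a higher germline mean in the knockout, and it did not pass the thresholds. It was at 493, 968.4 and 938.9 normalized counts in wild type and at 2180, 747.8 and 1004 in the knockout libraries. The groups overlapped, and the highest value was that of knockout replicate 1. The means were 800 ± 266 and 1310 ± 764, a log2 difference of 0.62 ± 0.434 (SE; limma p 0.194, adjusted p 0.789). Otx2 also marks the diencephalon and midbrain, and the summed level of 22 genes of those regions was 6423 in knockout replicate 1 against 1454 to 2950 in the other germline libraries. Of the 18 of them tested, 0 were called lower and 1 higher, En2, against 0.667% and 2.07% of all genes. En2 was at 0.92, 0.72 and 0.40 in wild type, under 3 counts, and so passed the filter only through its knockout libraries. Those were at 24.48, 22.92 and 20.08, a narrow range that did not follow the summed level. The source of these En2 reads was not tested, so En2 is not taken here as a sign of such tissue. Tcf7l2, a thalamic factor, was at 3212 in knockout replicate 1 against 283.1 to 638.0 in the other germline libraries. Of the genes of the list then tested, 8 were called higher without knockout replicate 2, against 4.19% of all genes, and 0 without knockout replicate 1. The part of such tissue in the Otx2 values was not tested. Without knockout replicate 2, Otx2 was called higher (0.95, limma p 0.0322, adjusted p 0.297), against the same 4.19%.

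Of the 7 members tested in the germline comparison, 6 had a log2 fold change below 0, against 56% of all genes tested, and the median over all genes was -0.043. None of the 7 was called higher, against 2.07% of all genes. No tested member had every knockout library below every wild-type library, which 7.55% of all genes had, and none had every knockout above, which 5.9% had. Ttr alone had an unadjusted p no higher than 0.05, against 5.39% of all genes. Counted by library over all 8 members, 6, 8 and 6 members lay below their wild-type mean on the log2 scale in knockout replicates 1, 2 and 3, and 7 of 8 did so in wild-type replicate 3. Without knockout replicate 2 the log2 differences of the members not yet given so were -1.12 for Htr2c, -0.99 for Calml4, -0.34 for Clic6 and -0.14 for Folr1. The median member lay at a log2 difference of -0.55, -1.70 and -0.29 from the wild-type mean in the knockouts and at 0.43, 0.48 and -0.81 in the wild-type libraries.

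**Figure D2:**
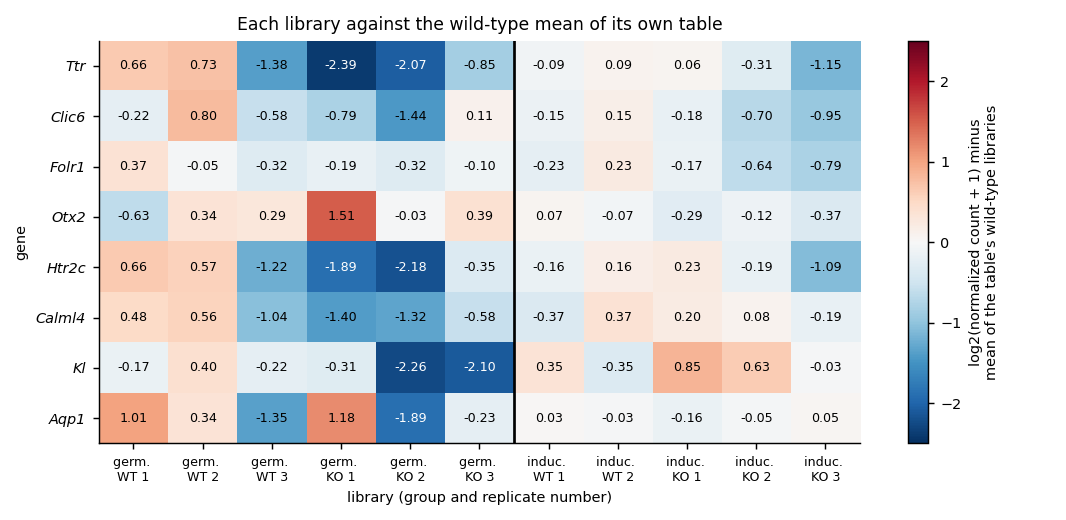
Heat map of the 8 genes (rows) in the 11 libraries (columns, the germline table left of the black line), in which each cell gives log2(normalized count + 1) minus the mean of the table's wild-type libraries, blue below and red above that mean. Germline wild-type replicate 3 is blue for 7 of 8 genes, germline knockout replicate 2 for all 8, and Otx2 (1.51) and Aqp1 (1.18) are red in germline knockout replicate 1.

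In the inducible comparison Clic6 was the 1 of 7 tested members called lower, against 0.49% of the 14081 genes tested (1.29% in either direction). It was at 1035 and 1272 normalized counts in wild type and at 1012, 704.1 and 591.9 in the knockout libraries. Every knockout lay below both wild-type libraries, knockout replicate 1 by a small margin. The mean went from 1153 ± 168 (SD, n = 2) to 769 ± 218 (n = 3), with a log2 fold change of -0.61 ± 0.21 (SE; limma p 0.0215, adjusted p 0.825). No member passed an adjusted p of 0.05, which 0.0355% of all genes did, and the call was lost without wild-type replicate 2 (-0.46), knockout replicate 2 (-0.57) or knockout replicate 3 (-0.44). The file gives Clic6 to fewer decimals than most of the table, as 1 of 106 such rows.

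Otx2 was the other member whose inducible groups did not overlap, at 1753 and 1600 normalized counts in wild type and 1366, 1546 and 1297 in the knockouts. Its mean went from 1676 ± 108 to 1403 ± 129, a log2 difference of -0.26 ± 0.0868 (SE; limma p 0.0194, adjusted p 0.825). The difference was below the 1.5-fold threshold, so it was not called. In all, 2 of 7 tested members had every knockout below every wild-type library, against 12.2% of all genes, 0 of 7 had every knockout above (10.4%), and 0 of 7 were called higher (0.802%). Clic6 and Otx2 were the 2 members with an unadjusted p no higher than 0.05, against 6.01% of all genes. The 22 diencephalon and midbrain genes summed to 4446 and 3933 in wild type and to between 3567 and 4152 in the knockout libraries, and of the 14 tested, 0 were called.

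The other 5 tested members had overlapping inducible groups. Folr1 was at 83.69 and 115.8 normalized counts in wild type and at 87.66, 62.62 and 56.49 in the knockout libraries (log2 difference -0.53 ± 0.243, limma p 0.0625). Ttr was at 2144 and 2430 in wild type and at 2374, 1839 and 1025 in the knockout libraries (-0.47 ± 0.304, limma p 0.164). Htr2c, an X-linked gene, was at 111.3 and 139.4 in wild type and at 146.1, 109 and 58.02 in the knockout libraries (-0.35 ± 0.356, limma p 0.357). For Ttr and Htr2c the same library, knockout replicate 3, was far below the rest, and without it Htr2c stood at 0.019 and Ttr at -0.13. Calml4 had close means of 25.2 ± 9.27 and 25.1 ± 3.51 (0.03 ± 0.308, limma p 0.92), and Aqp1 held to a 1.16-fold range, 80.63 to 93.27, over all 5 libraries (-0.05 ± 0.152, limma p 0.736).

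**Figure D3:**
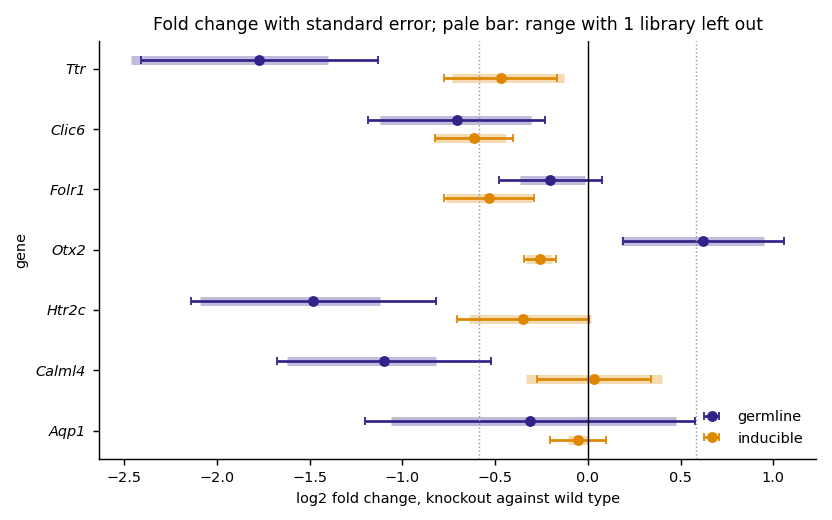
Log2 fold change of knockout against wild type (x axis) for the 7 tested genes (y axis) in the germline (violet) and inducible (orange) comparisons. Points carry the standard error of the limma fit, pale bars span the values with 1 library left out, and dotted lines mark the 1.5-fold threshold; Ttr is farthest from 0 (-1.77), and the germline standard errors (0.278 to 0.889) exceed the inducible ones for all 7 genes.

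By library, 4, 6 and 7 of the 8 members lay below their wild-type mean in inducible knockout replicates 1, 2 and 3. The median member was at a log2 difference of -0.05, -0.15 and -0.58 from that mean. Knockout replicate 3 was the library with the lowest value for 5 of the 8 members. Of the 7 tested members, 6 had a log2 fold change below 0, against 50.8% of all genes, with a median over all genes of -0.0019. Ttr was called in the germline and Clic6 in the inducible comparison, and whether either gene's effect differed between the comparisons was not tested.

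The ratio of Ttr to Htr2c changed little between libraries although both levels moved several-fold. In the germline table it was 22.3, 24.9 and 20.2 in wild type and 16.1, 24.9 and 15.9 in the knockouts, a 1.57-fold range beside an 8.70-fold range of Ttr and a 7.36-fold range of Htr2c. In the inducible table it was 19.3 and 17.4 in wild type and 16.2, 16.9 and 17.7 in the knockouts. Libraries low in one gene were low in the other, wild-type libraries included. The ratio of Ttr to Otx2 covered a 36.6-fold range in the germline table, from 9.55 in wild-type replicate 1 to 0.261 in knockout replicate 1. In the inducible table it covered a 2.20-fold range, from 1.74 in knockout replicate 1 to 0.791 in knockout replicate 3, beside a 2.37-fold range of Ttr. Ttr was 77.3% and 68.8% of the summed counts of the 8 members in germline wild-type replicates 1 and 2, 44.4% in wild-type replicate 3 and 17.4%, 40.6% and 48.1% in the knockouts.

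Across the 11 libraries, after centring each gene on its table's mean on the log2 scale, Ttr and Htr2c had a Pearson r of 0.98, Ttr and Calml4 of 0.94, and Ttr and Clic6 of 0.81. These are descriptions with no test, since both genes of a pair are read from the same libraries and share their depth and dissection. The r of Ttr and Calml4 rests mainly on the germline table. In the inducible table their ratio covered a 2.39-fold range, beside a 2.37-fold range of Ttr. Over all 28 pairs of members the median r was 0.44, with 11 pairs above 0.5 and 5 below 0, and all 5 of the latter involved Otx2. Over the 6 germline libraries alone Ttr and Otx2 had an r of -0.60, and in the 5 inducible libraries, too few for an r, both genes were lowest in knockout replicate 3. The 10 pairs among Ttr, Clic6, Folr1, Htr2c and Calml4 had a median of 0.78, and all 10 were above 0.5. Centred on each group's own mean instead, which takes out the knockout, Ttr and Htr2c kept an r of 0.97.

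**Figure D4:**
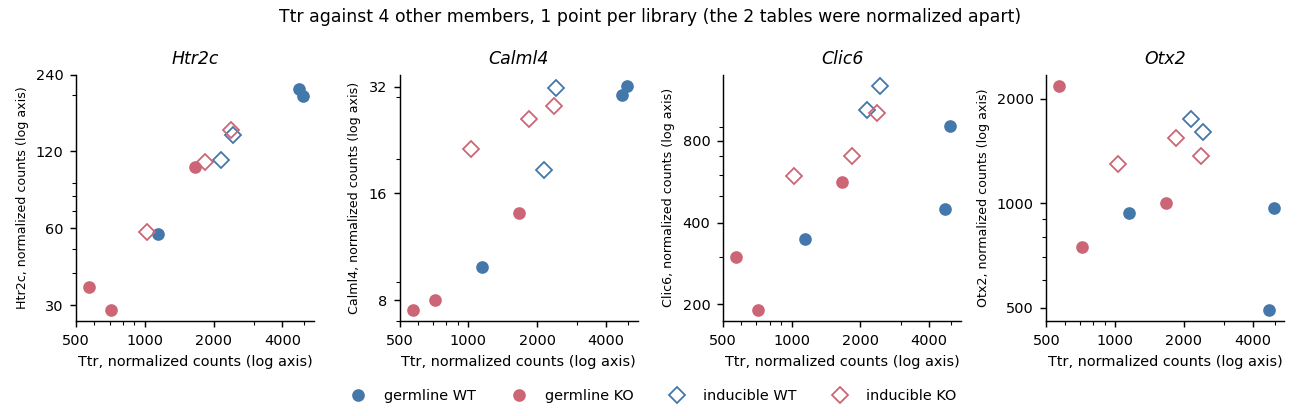
Normalized counts of Htr2c, Calml4, Clic6 and Otx2 (y axes, log scale) against Ttr (x axes, log scale), with 1 point per library, filled for the germline and open for the inducible table, blue for wild type and red for knockout. Htr2c is high where Ttr is high in both tables, and Otx2 shows no such order in the germline table, where it is highest in the library lowest in Ttr; the tables were normalized apart, so positions compare within a table.

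The genes whose pattern was most like the mean of the members, among 13725 genes and over the 11 libraries, were Ttc21a (r 0.969), Pifo (0.956), 2410004P03Rik (0.950), Ugt1a1 (0.948), Ugt1a6b (0.947), Ugt1a6a (0.942), Wfikkn2 (0.937) and Kcne2 (0.936). The 3 Ugt1a genes share exons, so their reads cannot be split between them and they count as a single pattern. Pifo is a gene of ciliated cells, and Kcne2 is a potassium channel subunit of the choroid plexus. Of the members themselves, Htr2c (0.92), Ttr (0.88), Clic6 and Calml4 (0.86 each) lay closest to the mean they help to form, and Otx2 (-0.12) farthest from it.

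Of 39 other genes of the choroid plexus epithelium, listed from general knowledge, 35 were tested in the germline comparison, with 1 called lower and 1 higher, against 0.667% and 2.07% of all genes. Kcne2 went from 202 ± 136 to 35.9 ± 33.6 normalized counts (SD, n = 3 and 3; log2 fold change -2.46 ± 0.88, limma p 0.0269, adjusted p 0.779). Its libraries took an order close to that of Ttr, at 286.9, 274.9 and 45.71 in wild type and 20.94, 12.39 and 74.36 in the knockouts. Igfbp2, an insulin-like growth factor binding protein, rose (1.18), and its r with the mean of the members over the 11 libraries was -0.7. The median of the list was -0.14, with 22 of 35 below 0, so most of it did not share the size of the Ttr or Kcne2 difference. The counts moved with single libraries, to 2 lower and 8 higher without knockout replicate 2 (4.58% and 4.19% of all genes), to 2 and 2 without knockout replicate 3, to 2 and 1 without wild-type replicate 3, to 0 and 0 without wild-type replicate 1, and to 0 and 1 without either wild-type replicate 2 or knockout replicate 1. In the inducible comparison 34 were tested, and 3 were called lower and 0 higher, against 0.49% and 0.802% of all genes. The median was -0.24. The 3 were the channel gene Trpm3 (1198 ± 76.3 to 777 ± 223, log2 fold change -0.67), the keratin Krt8 (-0.61) and the tight junction gene Cldn1 (-0.64). These 3 calls rested on few libraries, and 0 of the 35 genes then tested were called without wild-type replicate 2, 1 of 34 without knockout replicate 3 and 6 of 34 without knockout replicate 1.

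**Figure D5:**
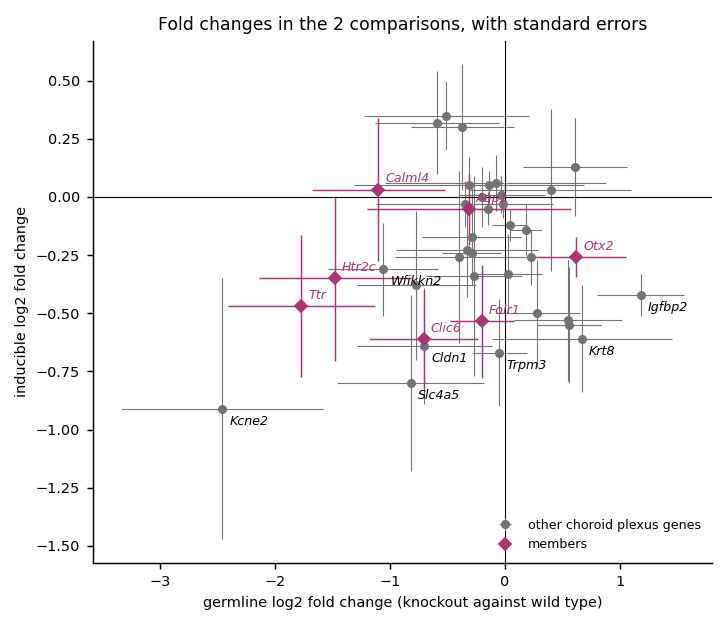
Log2 fold change in the inducible comparison (y axis) against the germline comparison (x axis) for the members (diamonds) and the other choroid plexus epithelium genes (circles) tested in both, with 1 point per gene and standard errors as bars. Kcne2 (-2.46) and Ttr (-1.77) lie farthest to the left, and Otx2 (0.62) is the only member right of 0.

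Genes of the dorsal midline, cortical hem and roof plate, the tissue beside the choroid plexus, had medians of opposite sign in the comparisons, a difference that was not tested. The list was chosen with earlier results of these data known, so its counts are a description and not a test. Of 22 tested in the germline comparison, 0 were called lower and 7 higher, against 0.667% and 2.07% of all genes. The median log2 difference was 0.58. Msx2, a target of Bmp signals, went from 53.2 ± 21.4 to 214 ± 120 (1.94 ± 0.48, limma p 0.00469, adjusted p 0.779), and Rspo2, an enhancer of Wnt signals, from 599 ± 222 to 1191 ± 329 (1.03). In the inducible comparison 5 of 22 were called lower and 0 higher, against 0.49% and 0.802% of all genes. The median was -0.44, and all 22 lay below 0, against 50.8% of all genes. Bmp6 went from 194 ± 33.8 to 106 ± 19.3 (SD, n = 2 and 3; -0.87 ± 0.19, limma p 0.00242, adjusted p 0.656) and Msx2 from 192 ± 54.5 to 92.8 ± 31.7 (-1.08). The inducible count was 1 without wild-type replicate 2 (0.312% of all genes). The germline count dropped to 2 when wild-type replicate 1 was left out (0.825%) and to 3 when wild-type replicate 2 was (0.953%).

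Of 27 genes of the multiciliated cell program, 0 were called in the germline comparison, where 0 also had an unadjusted p no higher than 0.05 by limma and the median was -0.24. Without knockout replicate 3, 5 of them were called lower, in a fit that called 2.9% of all genes lower. In the inducible comparison 6 were called lower and 0 higher, against 0.49% and 0.802% of all genes, with a median of -0.39. This list too was chosen with earlier results of these data known, so its counts are a description. Foxj1, the master regulator of motile cilia, was at 950.8 and 1182 normalized counts in wild type and at 726.4, 641.0 and 442.3 in the knockout libraries. The groups did not overlap, and its log2 fold change was -0.84 ± 0.20 (SE; limma p 0.00389, adjusted p 0.71). The others were Cfap126 (-0.98), Dnaic2 (-0.87), Ccno (-0.85), Rsph1 (-0.73) and Dynlrb2 (-0.95), all of them genes of ciliary structure or of centriole amplification. The count was 3 without wild-type replicate 2.

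Relatives and partners of the members were tested as a further list. Of 28 tested in the germline comparison 0 were called, with 3 at an unadjusted p no higher than 0.05 by limma, against 5.39% of all genes. Of 30 in the inducible comparison 1 was called lower and 0 higher, against 0.49% and 0.802% of all genes. The 1 was the water channel gene Aqp4 (32.8 ± 0.367 to 21.6 ± 2.89, log2 fold change -0.59 ± 0.25, limma p 0.0489, adjusted p 0.825). The Aqp4 call was lost in each of the 5 fits that left out a library. Rbp4, the retinol carrier that transthyretin binds, was at 4.67 or less in every library. Ttr is also made by hepatocytes, visceral endoderm and retinal pigment epithelium. Of 16 hepatocyte and visceral endoderm genes 2 reached the filter and 0 were called, their sum was 93.31 to 208.2 in the germline and 244.1 to 307.4 in the inducible libraries, and Alb was at 1.89 or less throughout. Of 15 pigment epithelium and eye genes 7 were tested, and 0 were called in the germline comparison. In the inducible comparison 1 (Best1) was called lower, against 0.49% of all genes, and Rpe65 was at 1.59 or less throughout. The summed level of these 15 genes was 881.0, 623.3 and 332.2 in germline wild-type replicates 1, 2 and 3, against 211.3, 543.9 and 469.1 in their knockouts. Much of this spread came from the retinal gene Rlbp1, at 482.0, 245.8 and 79.47 in wild type and at 16.17, 195.6 and 78.38 in the knockouts. The other 14 genes summed to 399.0, 377.5 and 252.7 in wild type and to 195.2, 348.3 and 390.8 in the knockouts, where knockout replicate 3 lay above wild-type replicate 2. In the inducible table the 15 genes summed to 681.0 and 563.3 in wild type and to 604.8, 590.9 and 433.9 in the knockouts, so the lowest sum was in the library lowest in Ttr, and the library highest in Ttr, wild-type replicate 2, had the next lowest. The part of eye tissue in the Ttr values was not tested, and Tyr, which makes pigment, was at 5.80 to 14.06 over all libraries.

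Sums of other gene lists also differed between the germline libraries. The 20 hypoxia and glycolysis genes summed to between 30930 and 31700 in the germline wild-type libraries and to 98560, 140200 and 36730 in the knockouts. Of the 20, 17 were called higher, against 2.07% of all genes. The list was chosen with earlier results of these data known, so the count is a description and not a test. That count was 3 without knockout replicate 1 (1.05% of all genes) and 4 without wild-type replicate 1 (0.825%). It was 6 when wild-type replicate 2 was left out (0.953%) and 19 without knockout replicate 3 (4.43%). Knockout replicates 1 and 2 were the highest in this sum and the lowest in Ttr, Htr2c, Calml4, Clic6 and Kcne2. The other members, Folr1, Otx2, Kl and Aqp1, did not have this order. Knockout replicate 1 was the highest germline library for Otx2 (2180) and Aqp1 (120). Wild-type replicate 3, which was also low in Ttr, had a sum of 31550, like the other wild-type libraries. The 18 genes of cranial mesenchyme and choroid stroma summed to between 6675 and 11670 in the germline wild-type libraries and to 25510, 1783 and 13620 in the knockouts, with 0 called. The 16 neuronal genes summed to 105400 in knockout replicate 2 against 29660 to 61180 in the others, and 0 were called. The 13 genes of dorsal cortical identity summed to 47770 in that library against 15250 to 28060, and 0 were called. Without knockout replicate 2, 13 of the 18 mesenchyme genes were called higher, 12 of the 16 neuronal genes lower and 6 of the 13 cortical genes lower, in the fit that called 4.58% of all genes lower and 4.19% higher. The part of these differences in the values of the members was not tested. In the inducible table the hypoxia and glycolysis sums overlapped between groups (70310 and 90890 in the wild-type, 67290 to 82580 in the knockouts). There 1 of 20 was called higher, against 0.802% of all genes.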

How the data were processed

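Per the labels and the study's methods, the authors isolated total RNA with TRIzol, selected poly(A) RNA with a TruSeq kit, aligned reads to mm9 with TopHat (version 1.2.0 in the submitters' processing notes), counted them on the exons of RefSeq genes, and scaled the libraries by edgeR's TMM (trimmed mean of M-values). The deposited signal consists of these normalized counts per gene, 1 table for each comparison, neither whole, divided by length nor on a log scale, and no column was left unused (0). The scaling takes most genes as unchanged. The study's methods name a later TopHat version than the processing notes do.

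Each table was fitted alone with limma 3.58.1 under R 4.3.3 (mean-variance trend, two-sided), as log2(normalized count + 1), on genes with a mean of at least 10. A call needs a fold change of 1.5 and an unadjusted p of 0.05. Benjamini-Hochberg adjustment ran over all genes tested. Levels under 3 counts have no order. Named genes are all 8 members, Kif20a, called genes of each list (at most 6 a list and table, smallest p first) and the 8 most like the members. Emx1, Kdm5d, Tcf7l2, Rbp4, Rlbp1, Alb, Rpe65 and Tyr were chosen after their values were seen. The members and lists were chosen with earlier results of these data known. The fit was tested on simulated data. The alternatives were a pseudocount of 4, no filter, median-of-ratios scaling, array weights, values per kilobase (pseudocount 0.1, mean 0.5), a replicate block and leaving out each library. Some genes of the lists are not reported here and were left out of their counts and sums.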

Additional observations from a re-analysis of the deposited data

Results flagged for a closer look

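No member gene was among the results below. The 38 genes checked were the members and the called genes named for each list (at most 6 a list and table, smallest p first). Each list gene had already passed both thresholds in the germline or the inducible comparison. Agreement among its knockout libraries there is therefore partly built into the choice. The share of all genes that meet the same rule was not counted. Of the 38, 10 lay above the wild-type mean in every germline knockout library and below it in every inducible one. Limits for Slc2a3, Pdk1 and En2 are given below. Each mean was that of the gene's own table on the log2 scale. The difference between the comparisons was not tested for any of the 10. The log2 difference, germline first and inducible after it, was 1.94 and -1.08 for Msx2, 1.37 and -1.34 for Bmp2, 1.03 and -0.81 for Rspo2, 0.80 and -0.84 for Rspo1, 0.90 and -0.60 for Wnt8b, and 0.74 and -0.87 for Bmp6, all of them genes of the dorsal midline and cortical hem. It was 1.18 and -0.42 for Igfbp2, of the other choroid plexus list, whose r with the mean of the members was -0.7. It was 2.48 and -0.05 for Slc2a3 and 1.79 and -0.23 for Pdk1, which are hypoxia and glycolysis genes. For Slc2a3 the inducible groups overlapped, and knockout replicate 2 (695.4 normalized counts) was level with the wild-type mean of 640.4 and 755.2. The inducible groups of Pdk1 overlapped too, as knockout replicate 3 (1764) lay above wild-type replicate 1 (1599). The log2 difference was 3.81 and -0.45 for En2, of the diencephalon and midbrain list. En2 was at 0.92 or less in the germline wild-type libraries, under 3 counts, and at 24.48, 22.92 and 20.08 in the germline knockouts. Its inducible difference rests on wild-type replicate 2 (6.29), since wild-type replicate 1 was at 0 and the knockouts were at 0.91 to 1.06, under 3 counts. The source of the En2 reads in the germline knockouts was not tested.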

How the results depend on the processing

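Of 161 values of single members under alternatives, 136 kept their direction and their side of the thresholds, 8 lost and 10 gained a call, and 7 reversed. Reversed were the germline Aqp1 difference with array weights (0.847), without wild-type replicate 1 (0.191) and without knockout replicate 2 (0.475), the inducible Htr2c difference with the replicate block and without knockout replicate 3 (0.0194 each), and the inducible Calml4 difference without wild-type replicate 1 (-0.336) and without knockout replicate 1 (-0.0527). None of these was called with the full set of libraries and the usual settings. Leaving out 1 library at a time, they ranged from -1.06 to 0.475 for Aqp1, -0.64 to 0.0194 for Htr2c and -0.336 to 0.40 for Calml4. The count of members called lower in the germline comparison was 1, against 0.667% of all genes. It was 2 with no filter on low values (Kl and Ttr, against 1.02%) and 0 with array weights (3.47%). With 1 library left out it was between 0 and 3. It was 3 without wild-type replicate 3 (Calml4, Htr2c and Ttr, against 0.917%) and without knockout replicate 3 (Clic6, Htr2c and Ttr, 2.9%). The count called higher (0, against 2.07% of all genes) was 1 with array weights (Otx2, against 4.02%). It was between 0 and 1 when 1 library was left out, with Otx2 called without knockout replicate 2 (4.19%). The inducible count called lower was 1, against 0.49% of all genes. It was 2 with array weights (Clic6 and Folr1, against 0.597%) and 0 with the replicate block (0.376%). With 1 knockout library left out it was between 0 and 3. It was 3 without knockout replicate 1 (Clic6, Folr1 and Ttr, against 0.632%). The inducible count called higher was 0 under every alternative run. The cause of these changes was not tested. Same-numbered libraries did not all deviate together (r -0.12, 0.31 and 0.25 in the germline and -0.35 and -0.05 in the inducible table), and a differently numbered germline pair reached 0.33, so the numbers were not taken as pairs. Over all genes, the germline calls were 93 lower and 289 higher, and 63 and 356 with median-of-ratios scaling, 484 and 560 with array weights, 180 and 372 with no filter, 642 and 587 without knockout replicate 2, and 403 and 617 without knockout replicate 3. Inducible calls were 69 and 113, and 145 and 212 with no filter. Members near 10 normalized counts, such as Calml4 and Kl, rest on few reads, which limits their precision.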
